A study of Mus musculus with 48 samples.

Results

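Prl, Gh, Pomc and Cga, which encode hormones of the anterior pituitary, and Crx, Bsx, Aanat and Tph1, which encode transcription factors and enzymes of the pineal gland, were followed through RNA sequencing libraries of mouse hippocampus. These 8 genes are 8 of the 48440 genes in the count table, and they were selected because reads of them had been seen in some of these libraries. Their levels and group differences are therefore given as a description, and no test of them is offered as support for anything.

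The 48 libraries came from female offspring with a C57BL/6 background, 3 months old, and each held RNA from a portion of the merged left and right hippocampi of 1 animal. The animals were labelled 5-Htt+/+ or 5-Htt+/-, the latter heterozygous for a knockout allele of Slc6a4, the serotonin transporter gene. Mothers were left undisturbed (control, C) or underwent restraint between embryonic days 13 and 17, with 3 sessions daily (prenatal stress, PS). The 3-chamber test, which scores time spent with another mouse, separated stressed offspring into SA animals (socially affected) and SU animals (socially unaffected). Libraries labelled 5-Htt+/+ numbered 8 C, 8 SA and 8 SU, and libraries labelled 5-Htt+/- numbered 7 C, 8 SA and 9 SU. The stage of the estrous cycle was not monitored, and the labels name no litter.

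The libraries held between 16488405 and 38213754 counted reads, with a median of 24125647.5. Levels are given as reads, or as CPM, the count per 1000000 reads of the library size after upper quartile scaling, on which 1 read was worth 0.0266 to 0.0619 CPM. Slc6a4 had 0 to 6 reads in the 24 libraries labelled 5-Htt+/+ and 207 to 532 reads in the 24 libraries labelled 5-Htt+/-. Hippocampal reads of the transporter gene were thus more numerous, not fewer, under the heterozygous label. The reason was not tested, and genotypes are therefore named only as labelled. The hippocampal markers Prox1, of the dentate gyrus, and Fibcd1, of CA1, had at least 1361 and 1485 reads in every library.

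The anterior pituitary lies below the brain and secretes peptide hormones from separate cell types. Lactotrophs make prolactin (Prl), somatotrophs make growth hormone (Gh), corticotrophs make pro-opiomelanocortin (Pomc), and gonadotrophs and thyrotrophs share the glycoprotein hormone alpha subunit (Cga). The pineal gland lies at the roof of the brain, next to the habenula, and turns serotonin into melatonin at night. Tryptophan hydroxylase 1 (Tph1) starts serotonin synthesis there, arylalkylamine N-acetyltransferase (Aanat) acetylates serotonin, and the homeobox factors Crx and Bsx drive pineal genes. Pomc is also a product of arcuate neurons of the hypothalamus, and Bsx is expressed there too.

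Prl lies on chromosome 13 (GRCm38, 27057570 to 27065204, plus strand), Gh on chromosome 11 (106300271 to 106301865, minus strand), Pomc on chromosome 12 (3954951 to 3960618, plus strand) and Cga on chromosome 4 (34893779 to 34907370, plus strand). Crx lies on chromosome 7 (15865947 to 15879968, minus strand), Bsx on chromosome 9 (40874127 to 40877972, plus strand), Aanat on chromosome 11 (116586432 to 116597680, plus strand) and Tph1 on chromosome 7 (46644641 to 46672537, minus strand). All are protein-coding, and among the rows of the table only Cga was overlapped by another gene, the opposite-strand transcript Platr9, over 1247 bases. Reads of Cga and Platr9 cannot be told apart without strand, and Platr9 had a median of 1 read and its highest count, 10 reads, in the library where Cga was highest.

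RefSeq promoter sequences (GRCm38.p6) were found for 6 of the 8 genes. The 250 bases before the start sites of Prl and Crx are shown because these genes lead the pituitary and pineal patterns described here, and because each window holds the core motif of a factor of its own gland. Capitals mark TATNCAT in Prl, the core recognised by the pituitary factor Pit-1 (Pou1f1), and TAATCC in Crx, the core recognised by the Crx protein, on either strand.
Prl promoter, chr13:27057320-27057569, plus strand: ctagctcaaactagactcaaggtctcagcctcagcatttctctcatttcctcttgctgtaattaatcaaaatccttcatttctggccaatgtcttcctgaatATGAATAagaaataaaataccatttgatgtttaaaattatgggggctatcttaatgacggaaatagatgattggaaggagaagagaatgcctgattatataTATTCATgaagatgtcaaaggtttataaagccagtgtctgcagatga
Crx promoter, chr7:15879956-15880205, minus strand: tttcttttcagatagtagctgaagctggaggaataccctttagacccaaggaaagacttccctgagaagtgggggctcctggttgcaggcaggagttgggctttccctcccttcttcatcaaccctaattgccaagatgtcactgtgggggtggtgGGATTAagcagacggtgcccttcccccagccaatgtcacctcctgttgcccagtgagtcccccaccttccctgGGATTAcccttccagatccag
In Prl, 1 match was on the strand shown and began 47 bases upstream of the start site, and the other was on the opposite strand and began 148 bases upstream. In Crx both matches were on the opposite strand, 94 and 21 bases upstream of the RefSeq start site. That site lies inside Crx as placed above, which starts at 15879968 on the minus strand, so this window overlaps the gene. TATNCAT was present in 7.92% and TAATCC in 6.25% of 32851 RefSeq promoter windows of the same length, so that a match by itself is common. The windows of Pomc, Cga, Bsx and Tph1 held neither motif.

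Prl reads were concentrated in a few libraries. A median of 1 read was counted per library, 16 of the 48 libraries had none, and 19 had at least 3 reads. In contrast, replicate 8 of the libraries labelled 5-Htt+/+ SA (hereafter 5-Htt+/+ SA replicate 8) had 1114 reads, or 44.9 CPM. The next were 5-Htt+/- C replicate 5 with 273 reads, 5-Htt+/- SU replicate 8 with 181, 5-Htt+/+ SU replicate 5 with 150, 5-Htt+/+ SU replicate 1 with 42 and 5-Htt+/- SU replicate 5 with 28. The highest library held 60.8% of the summed CPM of Prl, and the 5 highest held 91.1%. On the scale of reads, the share of the highest library was 58% (95% Wilson interval 55.7 to 60.1, covering counting error only). In bulk tissue a difference in the number of cells that make a transcript and a difference in RNA per cell cannot be told apart.

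Gh followed Prl. Its median was 1.5 reads, 13 libraries had none, and 5-Htt+/+ SA replicate 8 had 294 reads (11.9 CPM). After it came 5-Htt+/- C replicate 5 with 130 reads, 5-Htt+/+ SU replicate 5 with 72, 5-Htt+/- SU replicate 8 with 70, 5-Htt+/+ SU replicate 1 with 61 and 5-Htt+/+ C replicate 8 with 29. The same 5 libraries were highest in both hormones, though not in the same order. Over 48 libraries Pearson's r of log2 CPM was 0.92 between Prl and Gh (Spearman's rho 0.73), 0.88 without 5-Htt+/+ SA replicate 8, and 0.86 without the 2 libraries with the most extreme Prl. These values describe libraries that share a sequencing depth for both genes and, for most libraries, counts near 0.

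The balance between the 2 hormones was not the same in every library. Gh made up 20.9% of Gh and Prl reads together in 5-Htt+/+ SA replicate 8 (95% Wilson interval 18.8 to 23.1, n = 1408 reads). It made up 32.3% in 5-Htt+/- C replicate 5 (27.9 to 37.0), 27.9% in 5-Htt+/- SU replicate 8 (22.7 to 33.7) and 32.4% in 5-Htt+/+ SU replicate 5 (26.6 to 38.8). In 5-Htt+/+ SU replicate 1 the share was 59.2% (49.6 to 68.2) and in 5-Htt+/+ C replicate 8 it was 65.9% (51.1 to 78.1). The last 2 libraries therefore stood apart from the other 4 by more than counting error. Among those 4, the interval of 5-Htt+/+ SA replicate 8 lay below those of 5-Htt+/- C replicate 5 and 5-Htt+/+ SU replicate 5. It overlapped that of 5-Htt+/- SU replicate 8.

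Pomc and Cga were carried largely by the same single library. Pomc was detected in all 48 libraries, with a median of 11.5 reads, and only 5-Htt+/+ SA replicate 8 exceeded 5 times the median level, with 138 reads (5.57 CPM). The second level was 1.14 CPM, from 33 reads in 5-Htt+/- SU replicate 8, followed by 22 reads in 5-Htt+/+ SU replicate 5 and 28 reads in 5-Htt+/- C replicate 5. These 3 were also among the libraries highest in Prl. Cga had a median of 2 reads, 0 reads in 9 libraries and 34 reads (1.37 CPM) in 5-Htt+/+ SA replicate 8. Every other library had at most 7 reads of Cga. The highest library held 19.7% of the summed CPM of Pomc and 26.4% of that of Cga.

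**Figure D1:**
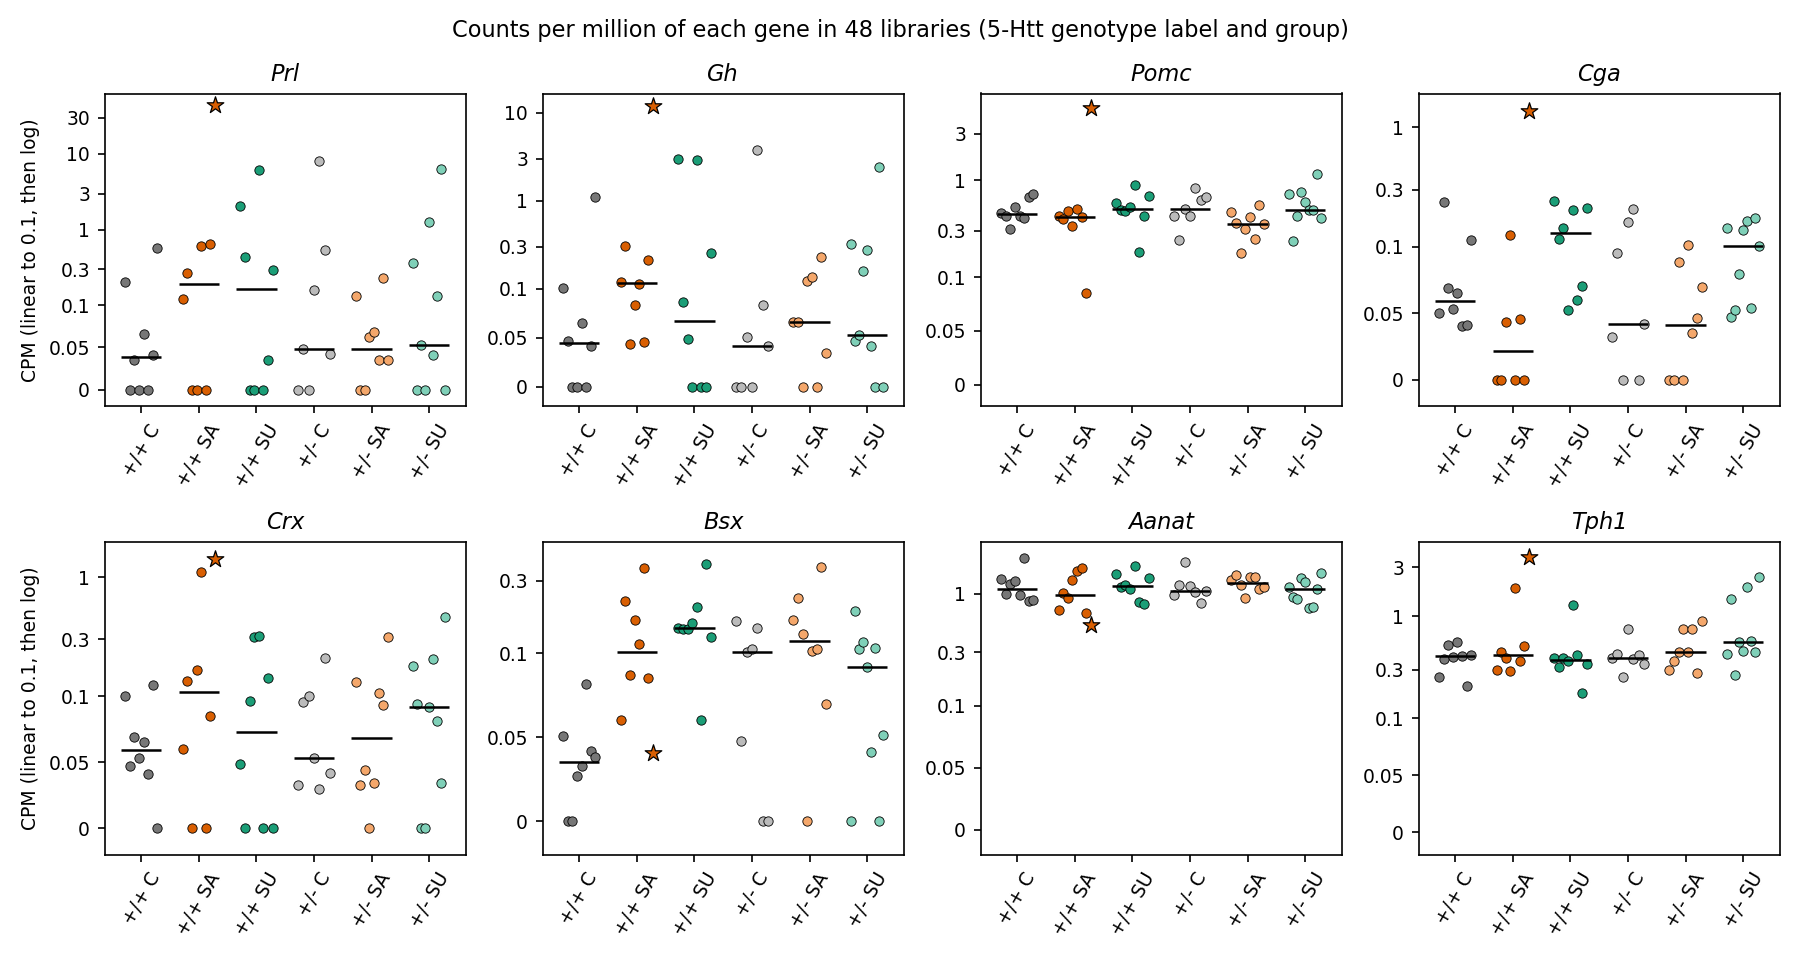
CPM of the 8 genes in each of 48 libraries, by labelled 5-Htt genotype and group, on an axis that is linear up to 0.1 CPM and logarithmic above it. Points are libraries, the star is 5-Htt+/+ SA replicate 8 and horizontal lines are group medians. The star is the highest point for Prl (44.9 CPM), Gh, Pomc, Cga, Crx and Tph1 and the lowest for Aanat (0.525 CPM).

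Crx and Tph1, from the pineal side, were also highest in 5-Htt+/+ SA replicate 8, and below it their order of libraries was not that of Prl. Crx had a median of 2 reads, 35 reads (1.41 CPM) in 5-Htt+/+ SA replicate 8 and 29 reads (1.11 CPM) in 5-Htt+/+ SA replicate 5, and at most 9 reads in every other library. Tph1 was detected in all 48 libraries, with a median of 10.5 reads, and had 94 reads (3.79 CPM) in 5-Htt+/+ SA replicate 8. The next levels of Tph1 were 2.40 CPM in 5-Htt+/- SU replicate 9, 1.94 CPM in 5-Htt+/- SU replicate 6, 1.88 CPM in 5-Htt+/+ SA replicate 5 and 1.46 CPM in 5-Htt+/- SU replicate 2. Of these 4 libraries, 5-Htt+/+ SA replicate 5 had 16 reads of Prl, and the 3 labelled 5-Htt+/- SU had at most 1. At rank 6 in Tph1 came 5-Htt+/+ SU replicate 5 (1.29 CPM), which had 8 reads of Crx and 150 of Prl. The highest library held 20.6% of the summed CPM of Crx and 12.4% of that of Tph1. Pearson's r between Tph1 and Crx was 0.63 over 48 libraries (Spearman's rho 0.25), 0.51 without 5-Htt+/+ SA replicate 8 and 0.44 without the 2 libraries with the most extreme Tph1.

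Aanat and Bsx did not follow this pattern. Aanat, whose enzyme sets the rate of melatonin production, was detected at 12 to 51 reads in every library, and its highest library, 5-Htt+/+ C replicate 6, held 3.71% of its summed CPM. The library with the most Tph1 and Crx, 5-Htt+/+ SA replicate 8, had 13 reads of Aanat and the lowest level of Aanat of all 48 libraries (0.525 CPM). Bsx had 0 to 11 reads and no library with at least 5 times the median level. Its highest library was 5-Htt+/+ SU replicate 7 (0.388 CPM), and 5-Htt+/+ SA replicate 8 had 1 read.

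With a high library set at 5 times the median level of a gene and at least 10 reads, 5-Htt+/+ SA replicate 8 was high in 6 of the 8 genes, and no other library was high in more than 2. Besides it, 5-Htt+/+ SA replicate 5 was high in a pituitary and in a pineal gene, with 16 reads of Prl and 29 reads of Crx. Prl was high in 12 libraries of 5 groups and Gh in 6 libraries of 5 groups, whereas Pomc and Cga were each high in 1 library, Crx in 2, Tph1 in 2, and Bsx and Aanat in 0. For Prl the median was 1 read, so that every library with at least 10 reads met the criterion. The library was not an unusually deep one, with 25094472 reads.

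**Figure D2:**
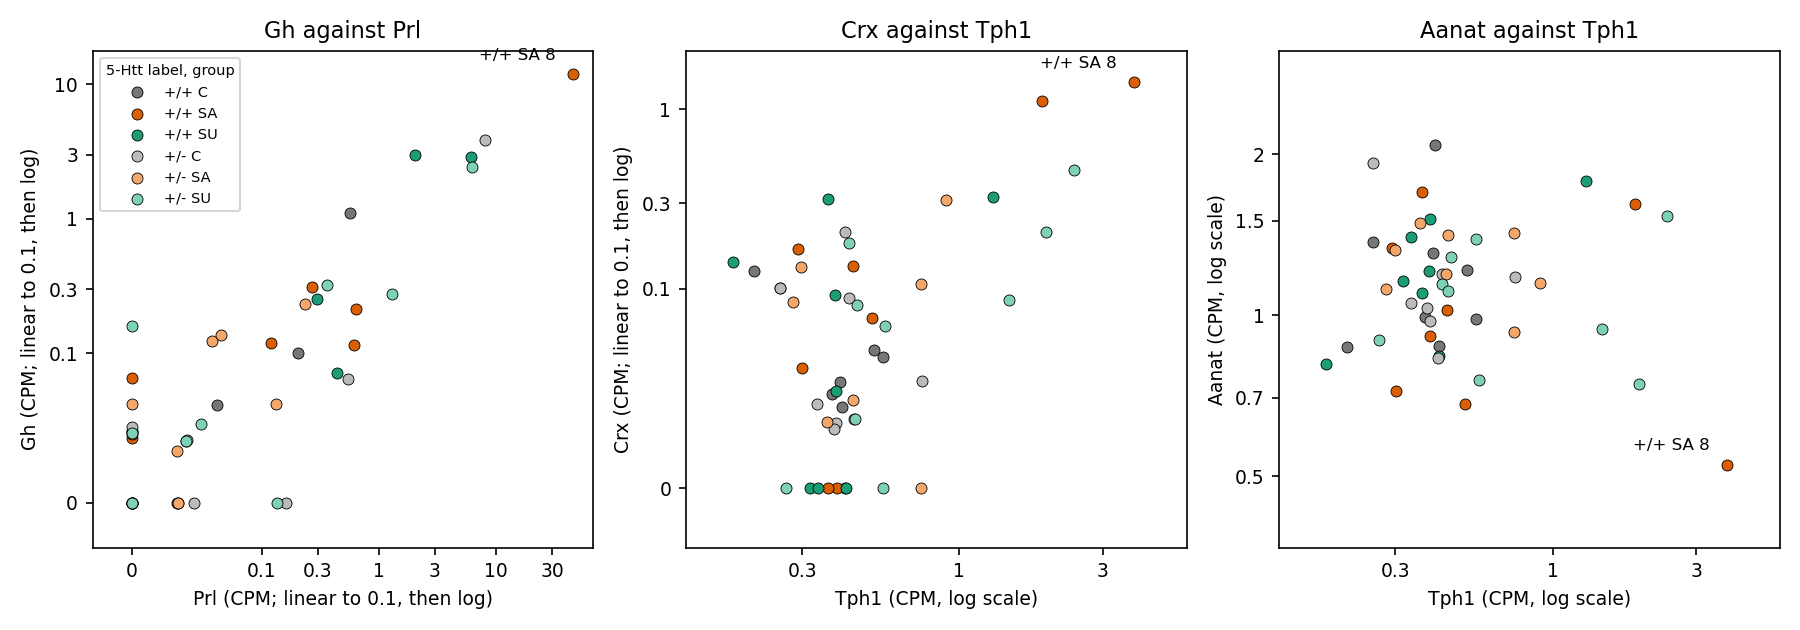
Levels of Gh against Prl, Crx against Tph1 and Aanat against Tph1 in CPM. Each point is 1 of 48 libraries, coloured by labelled 5-Htt genotype and group, and axes are logarithmic above 0.1 CPM. Gh and Prl rise together over several libraries of different groups (r = 0.92), Crx and Tph1 in fewer (r = 0.63), and the library with the most Tph1, 5-Htt+/+ SA replicate 8, has the least Aanat.

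Per kilobase of annotated exon, the highest levels followed the order Prl, Gh, Pomc, Cga, Aanat, Tph1, Crx and Bsx. In 5-Htt+/+ SA replicate 8, Prl reached 31.9 CPM per kilobase, Gh 13.8, Pomc 4.22 and Cga 1.44. Its Tph1 reached 0.614 and its Crx 0.447 CPM per kilobase. At the median over libraries the order was different, with Aanat at 0.690 CPM per kilobase, Pomc at 0.349 and the other 6 genes between 0.0238 and 0.0688.

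The same reads were then set out over the 6 groups. Among libraries labelled 5-Htt+/+, Prl ranged from 0 to 15 reads in C (median 1), from 0 to 1114 in SA (median 4) and from 0 to 150 in SU (median 4). Among libraries labelled 5-Htt+/- it ranged from 0 to 273 in C, from 0 to 5 in SA and from 0 to 181 in SU, each with a median of 1 read. All 6 groups held libraries with no Prl read, so that their ranges overlapped at 0. The 5-Htt+/- SA group was the one group with no library above 5 reads of either Prl or Gh.

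The group means of Prl were 5.82 ± 15.8 CPM (SD, n = 8) in 5-Htt+/+ SA, 1.26 ± 3.00 CPM (n = 7) in 5-Htt+/- C, 1.11 ± 2.12 CPM (n = 8) in 5-Htt+/+ SU and 0.904 ± 2.05 CPM (n = 9) in 5-Htt+/- SU. They were 0.114 ± 0.196 CPM (n = 8) in 5-Htt+/+ C and 0.0708 ± 0.0781 CPM (n = 8) in 5-Htt+/- SA. Each SD of the 6 groups was larger than its mean. Without 5-Htt+/+ SA replicate 8 the 5-Htt+/+ SA mean was 0.234 ± 0.285 CPM (n = 7), and that group moved from the first to the fourth place.

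Gh gave the same picture. Its mean was highest in 5-Htt+/+ SA, 1.60 ± 4.15 CPM (n = 8), and was 0.133 ± 0.0971 CPM (n = 7) without 5-Htt+/+ SA replicate 8, below 4 other groups. After that library was left out, 5-Htt+/+ SU was highest in Gh, with 0.784 ± 1.33 CPM (n = 8), through its replicates 1 and 5. The reads of Gh ranged from 0 to 29 in 5-Htt+/+ C, 1 to 294 in 5-Htt+/+ SA, 0 to 72 in 5-Htt+/+ SU, 0 to 130 in 5-Htt+/- C, 0 to 5 in 5-Htt+/- SA and 0 to 70 in 5-Htt+/- SU.

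Pomc was more even once the highest library was set aside. The 5-Htt+/+ SA mean of 1.02 ± 1.84 CPM (n = 8) became 0.376 ± 0.139 CPM (n = 7), and the other 5 groups lay between 0.360 and 0.584 CPM. Cga in 5-Htt+/+ SA went from the highest mean, 0.198 ± 0.476 CPM (n = 8), to the lowest, 0.0307 ± 0.0467 CPM (n = 7). In that group 4 of the 8 libraries had no read of Cga, while 5-Htt+/+ C, 5-Htt+/+ SU and 5-Htt+/- SU had at least 1 read in each library.

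Crx kept its highest mean in 5-Htt+/+ SA, at 0.371 ± 0.559 CPM (n = 8) with all libraries and 0.223 ± 0.397 CPM (n = 7) without 5-Htt+/+ SA replicate 8. The value that remained rested on 5-Htt+/+ SA replicate 5, since the other 6 libraries of that group had 0 to 4 reads. Tph1 was highest in 5-Htt+/+ SA, 0.997 ± 1.25 CPM (n = 8), and in 5-Htt+/- SU, 0.948 ± 0.782 CPM (n = 9), and the other 4 groups lay between 0.393 and 0.528 CPM. Without the highest library 5-Htt+/+ SA fell to 0.598 ± 0.570 CPM (n = 7). The medians of Tph1 were closer, from 0.377 CPM in 5-Htt+/+ SU to 0.556 CPM in 5-Htt+/- SU.

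The group levels of Bsx were not carried by any 1 library, but they rest on very few reads, and Bsx was not called in any contrast. The 5-Htt+/+ C libraries had 0 to 2 reads, the 5-Htt+/+ SA libraries 1 to 8 and the 5-Htt+/+ SU libraries 1 to 11. On the CPM scale 6 of 8 SA and 7 of 8 SU libraries labelled 5-Htt+/+ were above every 5-Htt+/+ C library. Among the 6, 5-Htt+/+ SA replicates 3 and 7 had 2 reads each, as did the highest control library, 5-Htt+/+ C replicate 6. They were above it only through the scaling by library size. The share of all genes with such numbers of libraries above the controls was not determined, so nothing is read from these numbers. Among libraries labelled 5-Htt+/+, control Bsx averaged 0.0339 ± 0.0267 CPM (n = 8). The SA group averaged 0.143 ± 0.108 CPM (n = 8), and the SU group 0.171 ± 0.0958 CPM (n = 8). Among libraries labelled 5-Htt+/-, the SA group averaged 0.148 ± 0.113 CPM (n = 8), control libraries 0.0809 ± 0.0663 CPM (n = 7) and the SU group 0.0784 ± 0.0612 CPM (n = 9). Aanat had means of 1.06 to 1.25 CPM in the 6 groups, with SDs of 0.189 to 0.440 CPM. For each of the 8 genes, the 5 pairs of neighbours in the order of the 6 group means all differed by less than the larger of their 2 SDs.

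In the edgeR quasi-likelihood fit over 31208 genes, all 8 genes passed the filter on low counts. In this fit 0 of 8 were called at an adjusted p under 0.05 in any of the 5 contrasts. The likelihood ratio test and DESeq2 also called 0 of 8. DESeq2 gave no adjusted p for any of the 8 genes for SU against C in libraries labelled 5-Htt+/-. It gave none for Cga and Bsx for SA against C under that label, so these values could not be called. A fit with the replicate number as a block called Prl for SA against C in libraries labelled 5-Htt+/+. The share of all genes called was 0.0128% for SA against C and 0.0192% for SU against C in libraries labelled 5-Htt+/+, 0.0288% for SA against C and 0.016% for SU against C in libraries labelled 5-Htt+/-, and 0% for the three-way contrast, which asks whether the SA to SU difference differs between genotype labels. At an unadjusted p under 0.05, the first contrast held 7 of the 8 genes (all but Aanat), beside 3.07% of all genes. The second held Bsx, beside 3.37% of all genes. In libraries labelled 5-Htt+/- the SA contrast held Prl, beside 12.1%, and the SU contrast held Tph1, beside 15.5%. The three-way contrast held Prl, Pomc, Crx, Bsx and Tph1, beside 3.7%. Nothing is read from these counts, because the genes were selected on reads of the same libraries.

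The first contrast depended on 5-Htt+/+ SA replicate 8. For SA against C in libraries labelled 5-Htt+/+, the log2 fold change was 5.74 ± 1.38 (SE, derived from the test statistic) for Prl, 3.33 ± 1.16 for Gh, 1.36 ± 0.62 for Cga and 1.11 ± 0.46 for Pomc. Without this library it was 1.15 ± 1.97 for Prl, -0.30 ± 1.63 for Gh, -1.21 ± 0.67 for Cga and -0.39 ± 0.29 for Pomc, so that Gh, Cga and Pomc changed sign. Of the pineal genes, Crx went from 2.63 ± 0.66 to 1.93 ± 0.68 and Tph1 from 1.37 ± 0.48 to 0.64 ± 0.46. Bsx was 1.96 ± 0.56 with and 2.11 ± 0.56 without the library, and Aanat -0.17 ± 0.20 with and -0.06 ± 0.20 without it. Without the library, 2 of the 8 genes (Crx and Bsx) remained at an unadjusted p under 0.05, in place of 7. With all libraries, DESeq2 gave this contrast a log2 fold change of 0.91 ± 1.22 for Prl, -0.49 ± 1.09 for Gh and -0.36 ± 0.29 for Pomc. Its values for Cga, Crx, Tph1, Bsx and Aanat were 1.29, 2.60, 1.34, 2.12 and -0.18, near those of edgeR.

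**Figure D3:**
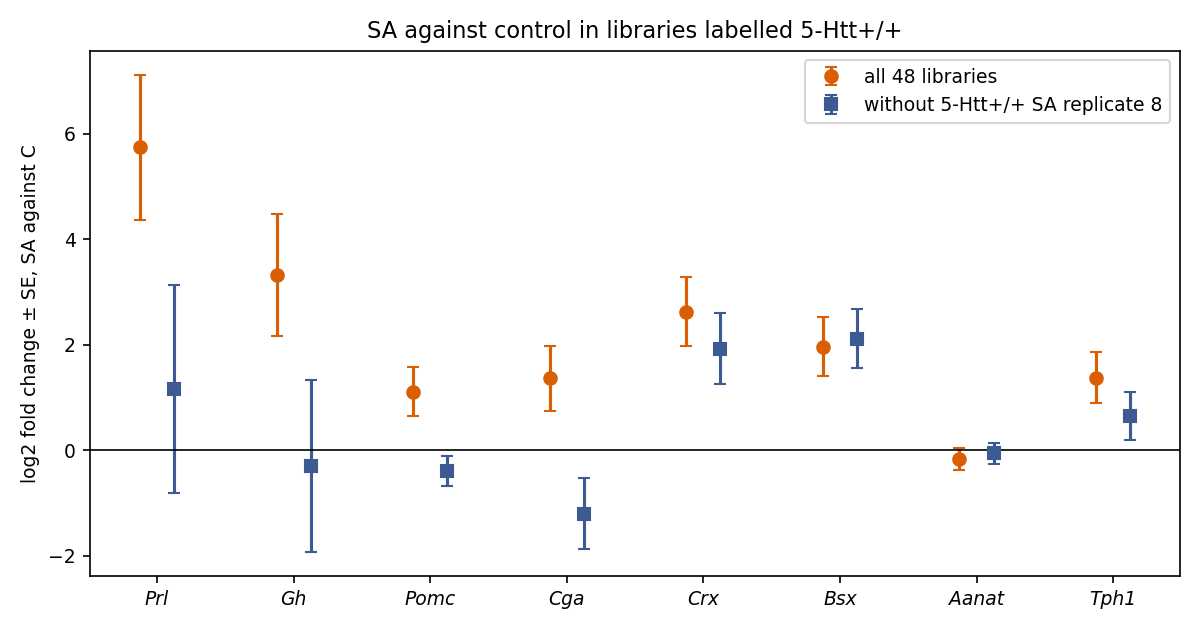
Log2 fold change of SA against C in libraries labelled 5-Htt+/+, from the edgeR fit, with bars of 1 SE derived from the test statistic. Circles use all 48 libraries and squares leave out 5-Htt+/+ SA replicate 8. Prl falls from 5.74 to 1.15 and Gh, Pomc and Cga change sign, whereas Bsx stays near 2 (1.96 and 2.11) and Aanat near 0.

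Several other large values moved when the libraries highest in a gene were left out together. For SA against C in libraries labelled 5-Htt+/-, Prl had a log2 fold change of -4.44 ± 2.0 and Gh one of -3.19 ± 1.66, with 273 and 130 reads in 5-Htt+/- C replicate 5. Without the 5 libraries highest in Prl they were -0.90 ± 1.14 for Prl and 1.28 ± 1.17 for Gh. For SU against C in libraries labelled 5-Htt+/+, Prl went from 3.34 ± 1.93 to 0.54 ± 0.97 and Gh from 2.18 ± 1.38 to -1.18 ± 0.82 when the same 5 libraries were left out. For SU against C in libraries labelled 5-Htt+/-, Tph1 was 1.11 ± 0.50 and became 0.18 ± 0.32 without the 5 libraries highest in Tph1, of which 3 belonged to that SU group. Crx for SA against C in libraries labelled 5-Htt+/+ was 0.29 ± 0.72 without those 5 libraries. Bsx for SU against C in libraries labelled 5-Htt+/+ was 2.29 ± 0.53, and it was 2.29 in each of these leave-out fits. Neither fit left out 5-Htt+/+ SU replicate 7, the library highest in Bsx. The fit without the 5 libraries highest in Tph1 kept every library of both groups, so it could not test this value. Whether Bsx depends on its own highest library was therefore not tested by these fits.

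Other genes of both glands were examined next, from lists that left out the 8 genes. Of 15 further anterior pituitary genes, 10 passed the filter. Fshb, the beta subunit of follicle-stimulating hormone, had 7 reads in 5-Htt+/+ SA replicate 8 and 0 reads in 38 of 48 libraries. On the CPM scale it was the 1 gene of the list that was highest in that library. Fshb, Pou1f1, Lhb and Ghrhr here, and Lhx4, Gnb3, Pde6c, Asmt and Hcrt further on, were chosen after their values were seen. Pou1f1, which encodes Pit-1, had 0 reads in 5-Htt+/+ SA replicate 8. Lhb, the beta subunit of luteinising hormone, had 8 reads, against 4 at the median. Tshb, the thyrotropin beta subunit, had 18 reads there against a median of 22.5, and Tbx19, the corticotroph T-box factor, 48 against 43. Ghrhr, the receptor for growth hormone-releasing hormone, had 6 reads there, its largest count, against a median of 2. In 5-Htt+/+ SU replicates 5 and 1 it had 4 and 1 reads, in 5-Htt+/- SU replicate 8 it had 3 and in 5-Htt+/- C replicate 5 it had 1. On the CPM scale Ghrhr was highest in 5-Htt+/- SU replicate 5. The summed level of the list was 12.2 CPM in 5-Htt+/+ SA replicate 8, rank 34 of 48, against a median of 13.0 CPM. This sum was made up mostly of Trhr, Pappa2 and Tbx19, with medians of 124, 68 and 43 reads. Genes with few reads added little to it, so its rank says little about them. No gene of the list was called by edgeR in any contrast (at an unadjusted p under 0.05, 2 values were higher and 1 lower over the 5 contrasts), and its median log2 fold change lay between -0.05 and 0.26, beside -0.01 to 0.01 for all genes.

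Prl belongs to a family of placental and pituitary genes, and 25 other rows of that family were in the table. The other members had at most 5 reads in any library, with 3 reads in sum in 5-Htt+/+ SA replicate 8.

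Of 14 further pineal genes, 12 passed the filter. Rbp3, the interphotoreceptor retinoid-binding protein shared by retina and pineal gland, followed Crx and Tph1. It had a median of 2.5 reads, 22 reads in 5-Htt+/+ SA replicate 8, 21 in 5-Htt+/+ SA replicate 5, 13 in 5-Htt+/- SU replicate 6, 8 in 5-Htt+/- SU replicate 9 and 7 in 5-Htt+/- SU replicate 2. On the CPM scale these 5 libraries were the 5 highest in Rbp3 and the 5 highest in Tph1, followed in Rbp3 by 5-Htt+/- SA replicate 8 with 9 reads (0.314 CPM). Pearson's r of Rbp3 with Tph1 was 0.68 over 48 libraries (Spearman's rho 0.27), 0.60 without 5-Htt+/+ SA replicate 8 and 0.55 without the 2 libraries with the most extreme Tph1. Rbp3 was not called in any contrast, with a log2 fold change of 1.24 ± 0.53 for SA against C in libraries labelled 5-Htt+/+ and 2.0 ± 0.71 for SU against C in libraries labelled 5-Htt+/-.

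The other pineal genes differed in this respect. Lhx4, a LIM homeobox factor, was also highest in 5-Htt+/+ SA replicate 8, with 9 reads against a median of 2.5, and had 6 or 7 reads in the 3 libraries labelled 5-Htt+/- SU but 2 in 5-Htt+/+ SA replicate 5. Gnb3, a G protein subunit of photoreceptors, had 13 reads in 5-Htt+/+ SA replicate 8 and 20 in 5-Htt+/- SU replicate 9, against a median of 8. Pde6c, a phosphodiesterase subunit of cones, had 14 reads in 5-Htt+/+ SA replicate 8 and 21 in 5-Htt+/+ SA replicate 5, against a median of 10. Asmt, the last enzyme of melatonin synthesis, had 42 to 226 reads over all libraries and 129 in 5-Htt+/+ SA replicate 8, against a median of 149. Sag, the arrestin of photoreceptors and pinealocytes, had 54 reads against a median of 43.5, and Rcvrn, the calcium sensor recoverin, 8 against 16.5. The summed level of the list was 23.9 CPM in 5-Htt+/+ SA replicate 8, rank 11 of 48, within a range of 19.6 to 26.5 CPM. This sum was made up mostly of Cngb3 and Asmt, with medians of 215.5 and 149 reads, so its rank says little about genes with few reads. The median log2 fold change of the list lay between -0.04 and 0.17 over the 5 contrasts, with no gene called and, at an unadjusted p under 0.05, 7 values higher and 0 lower.

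Markers of neighbouring tissues were set beside these values. The summed level of 10 choroid plexus genes was 924 CPM in 5-Htt+/+ SA replicate 8, the highest of 48 libraries, against a median of 48.1 CPM and a range of 26.1 to 924 CPM. Ttr, the thyroid hormone carrier that defines this epithelium, had 19540 reads there. Of the other libraries highest in Prl, 5-Htt+/+ SU replicate 5 had 832 CPM and 5-Htt+/- C replicate 5 had 680 CPM of these genes, whereas 5-Htt+/- SU replicate 8 and 5-Htt+/+ SU replicate 1 had 34.7 and 30.8 CPM. Of the other libraries highest in Tph1, the 3 labelled 5-Htt+/- SU had 911, 683 and 284 CPM and 5-Htt+/+ SA replicate 5 had 64.4 CPM. Group ranges overlapped, from 26.1 to 832 CPM in 5-Htt+/+ SU and 28.2 to 924 CPM in 5-Htt+/+ SA, with 741 CPM at most in 5-Htt+/+ C. The median of the choroid plexus sum was 412 CPM in 5-Htt+/+ SA and 284 CPM in 5-Htt+/- SU, the 2 groups with the highest means of Tph1, and 33.4 to 48.9 CPM in the other 4 groups. The median log2 fold change of these genes ranged from -0.22 to 1.4 over the 5 contrasts, with no gene called. High levels of choroid plexus genes were thus present with and without Prl, and their part in the results was not tested.

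**Figure D4:**
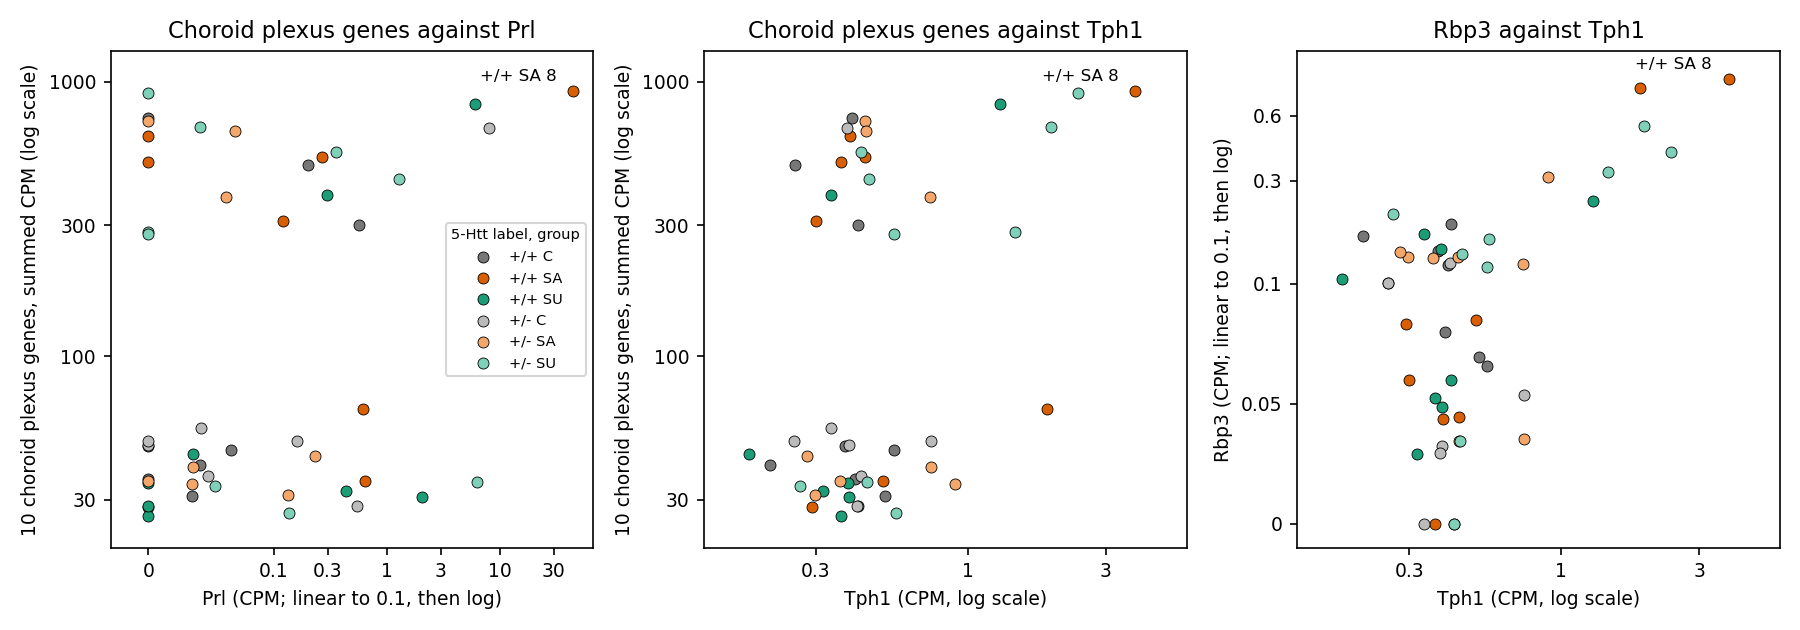
Summed level of 10 choroid plexus genes against Prl and against Tph1, and level of Rbp3 against Tph1, in CPM. Each point is 1 of 48 libraries, coloured by labelled 5-Htt genotype and group. Choroid plexus levels fall into a low and a high set, and libraries with Prl are found in both, from 30.8 to 924 CPM, while the 5 libraries highest in Tph1 have 7 to 22 reads of Rbp3, against a median of 2.5.

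The 8 meningeal genes also summed to their highest value in 5-Htt+/+ SA replicate 8, 169 CPM against a median of 91.3 CPM, with Igf2 at 1944 reads. Of the other libraries highest in Prl, 5-Htt+/+ SU replicate 5 had a meningeal sum of 139 CPM, rank 3 of 48. In 5-Htt+/- C replicate 5, 5-Htt+/- SU replicate 8 and 5-Htt+/+ SU replicate 1 the meningeal sum was 91.9, 81.8 and 90.7 CPM, near the median. For the summed levels of hypothalamic, habenular and thalamic genes, 5-Htt+/+ SA replicate 8 ranked 39, 34 and 42 of 48. Among the habenular genes, Chrnb4, a nicotinic receptor subunit, had 15 reads there against a median of 5, and 16, 8, 6 and 11 reads in 5-Htt+/- SU replicates 9, 6 and 2 and 5-Htt+/+ SA replicate 5, the other libraries highest in Tph1. The hypothalamic sum was made up mostly of Agrp, with a median of 2654 reads, a row that overlaps several genes, among them Fam65a on the opposite strand over 16966 bases. The defining hypothalamic peptides Oxt, Avp, Hcrt and Pmch had 2, 5, 1 and 3 reads in 5-Htt+/+ SA replicate 8, against medians of 2, 4, 1 and 4. Among the other libraries highest in Prl, 5-Htt+/- C replicate 5 had the highest hypothalamic sum of all libraries (131 CPM, against a median of 116) and 20 reads of Pmch, and 5-Htt+/+ SU replicate 5 had 11 reads of Oxt and 20 of Avp. In libraries labelled 5-Htt+/-, Oxt, Avp and Pmch were lower in both SA and SU than in C at an unadjusted p under 0.05 but were not called, with log2 fold changes in SA of -1.71 ± 0.53, -1.88 ± 0.57 and -0.90 ± 0.34, in the same contrast as the value of -4.44 for Prl. The part of the hypothalamic genes in the results was not tested. The 6 hippocampal genes summed to 824 CPM, rank 22. The part of the meningeal genes in the results was not tested.

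Receptors and downstream genes of these hormones were then described. Prlr, the prolactin receptor, was highest in the same library, with 905 reads in 5-Htt+/+ SA replicate 8 against a median of 125. It had 634 reads in 5-Htt+/- SU replicate 9 and 642 in 5-Htt+/+ SU replicate 5, both also high in choroid plexus genes, but 72 reads in 5-Htt+/- SU replicate 8 and 76 in 5-Htt+/+ SU replicate 1. Ghr, the growth hormone receptor, had 226 reads against a median of 178, and Mc4r, the melanocortin receptor of the brain, 93 against 88. None of the 11 receptor genes was called in any contrast.

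Summed levels of genes that act after these receptors showed little variation. The 6 JAK-STAT genes summed to 91.9 CPM in 5-Htt+/+ SA replicate 8, rank 19 of 48, within a range of 72.3 to 99.7 CPM. Among them Socs2, a feedback inhibitor induced by growth hormone, had 550 reads against a median of 513.5, and Igf1, the growth factor induced by growth hormone, had 159 against 159. Cish, of the same list, ranged from 26 to 91 reads with a median of 49. It had 65 reads in 5-Htt+/+ SA replicate 8, 90 in 5-Htt+/- C replicate 5 and 64 in 5-Htt+/+ SU replicate 5. In 5-Htt+/- SU replicate 8 and 5-Htt+/+ SU replicate 1 it had 49 and 34. On the CPM scale Cish was highest in 5-Htt+/- SU replicate 9, which had 0 reads of Prl. The JAK-STAT sum was made up mostly of Jak2 and Socs2, with medians of 988 and 513.5 reads. The 4 genes of Pomc processing, including the convertase Pcsk1 (390 reads against 417.5), ranked 13. The 5 genes of indoleamine synthesis and breakdown summed to 62.9 CPM, rank 1, in a narrow range that began at 51.7 CPM, and among them Maob, which degrades monoamines, was highest in that library with 623 reads against 450.5. Tph2, the neuronal tryptophan hydroxylase, had 51 reads against 32.5. The 7 upstream factors, such as somatostatin (Sst, 1461 reads against 1534), ranked 35. Of the 98 genes on all 13 lists that passed the filter, 0 were called in any of the 5 contrasts.

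The genes most like each member over the libraries were few and mostly unstable. For each member the 5 most alike genes were taken over 48 libraries and again without its highest library. The 2 sets shared 4 genes for Aanat, 3 for Bsx, 2 for Tph1, 1 for Prl, 1 for Crx and 0 for Pomc and Cga. For Prl the shared gene was Retsat, a retinol saturase (r = 0.55 and 0.53), and for Gh F11r, a junctional adhesion molecule, was shared (0.53 and 0.45). For Crx it was Rbp3 (0.62 and 0.52), and for Tph1 Rbp3 (0.68 and 0.60) and Hsdl2 (0.59 and 0.60). For Aanat they were Leng8, Stard9, Leng9 and B230206H07Rik, with r of 0.60 to 0.63. For Bsx they were Slc22a4, a carnitine and ergothioneine transporter, Gm5863 and Gm27881, with r of 0.51 to 0.53. With all libraries, Pomc was most like the interferon-induced genes Ifi27 (r = 0.57), Irf7 and Oasl2, and Cga was most like Ddx58 (0.56), which encodes the RNA sensor RIG-I. These genes were highest in 5-Htt+/+ SA replicate 8 and left the sets without it.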

How the data were processed

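The authors deposited raw read counts per gene (48440 genes, 48 libraries). Their text describes single-end sequencing with STAR and Salmon, while HTSeq, DESeq2 and the build GRCm38.p5 are listed, besides STAR, in the processing notes of the submitters. The handling of strand and of reads with several matches was not given in the sources used here. From these counts, edgeR 4.0.16 (R 4.3.3) quasi-likelihood tests with upper quartile factors were fitted to all libraries with 1 mean per group, keeping genes that reached 5 reads in 3 or more libraries, and p-values were adjusted by Benjamini-Hochberg over all genes; scripts were tested on simulated data. CPM uses the same factors, and log2 CPM a prior count of 2. The SE of an edgeR log2 fold change is its absolute value divided by the square root of the F or likelihood ratio statistic. DESeq2 gives its own SE. Exon lengths are from GENCODE M21 and promoters from RefSeq. The members and all lists were chosen with earlier results of these data known. Named genes are the members, up to 6 genes per list by summed CPM, the 5 genes most like each member, Slc6a4, and those said to be chosen later. Alternatives were the likelihood ratio test, DESeq2 1.42.0, TMM, no filter, a replicate block and leaving out libraries. No duplicate library was found among 169 within-group pairs. Nothing in the labels says that animals came from separate litters, so p-values measure the spread between these libraries. Some genes met by these rules are not reported here.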

Additional observations from a re-analysis of the deposited data

Results flagged for a closer look

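In 48 sets of libraries, 1 for each gene and group, the highest and the lowest library were compared with their nearest neighbour by Dixon's criterion. A library stood apart in 21 sets, always as the highest. Chance gives about 1 in 20 for normally distributed values, but many of these sets are skewed counts near 0 and the genes were selected for reads in some of these libraries, so the number of such sets supports nothing. For Prl these were 5-Htt+/+ SA replicate 8 (44.9 CPM), 5-Htt+/- C replicate 5 (8.04 CPM), 5-Htt+/- SU replicate 8 (6.27 CPM), 5-Htt+/+ SU replicate 5 (6.06 CPM) and 5-Htt+/+ C replicate 8 (0.570 CPM). For Gh they were 5-Htt+/+ SA replicate 8 (11.9 CPM), 5-Htt+/- C replicate 5 (3.83 CPM), 5-Htt+/- SU replicate 8 (2.42 CPM) and 5-Htt+/+ C replicate 8 (1.10 CPM). For Pomc it was 5-Htt+/+ SA replicate 8 (5.57 CPM), and for Cga the same library (1.37 CPM) and 5-Htt+/+ C replicate 2 (0.236 CPM, from 5 reads). For Crx they were 5-Htt+/- SU replicate 9 (0.460 CPM), 5-Htt+/- SA replicate 8 (0.314 CPM) and 5-Htt+/- C replicate 6 (0.208 CPM), each from 5 to 9 reads. The 5-Htt+/+ SA group was not among the sets for Crx, because it held 2 high libraries. For Tph1 they were 5-Htt+/+ SA replicate 8 (3.79 CPM), 5-Htt+/+ SU replicate 5 (1.29 CPM) and 5-Htt+/- C replicate 4 (0.750 CPM). For Bsx it was 5-Htt+/+ SU replicate 7 (0.388 CPM), and for Aanat 5-Htt+/+ C replicate 6 (2.08 CPM) and 5-Htt+/- C replicate 3 (1.92 CPM). The sets are not independent, since 5 of the 21 were from 5-Htt+/+ SA replicate 8.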

How the results depend on the processing

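Under other scalings of the libraries, group means moved by less than their SD and shares held by the highest library by less than their interval, whereas leaving out 5-Htt+/+ SA replicate 8 took the mean of Prl in its group from 5.82 to 0.234 CPM. With a high library set at 3 times the median, 1 library was high in Bsx and 6 in Tph1, and at 10 times 0 were high in Tph1. The quasi-likelihood test called 4 and 6 genes (SA and SU against C, labelled 5-Htt+/+), 9 and 5 genes (the same, labelled 5-Htt+/-) and 0 in the three-way contrast. In the same order, without the three-way contrast, the likelihood ratio test called 0, 1, 21 and 88 genes and DESeq2 0, 3, 25 and 240. TMM called 16 genes for SU against C in libraries labelled 5-Htt+/-. The earlier quasi-likelihood form of edgeR, chosen after seeing the data, called 0 and 1 for SA and SU in libraries labelled 5-Htt+/+. Without the 5 libraries highest in Prl, 2 and 0 genes were called for SA and SU labelled 5-Htt+/-. Without the 5 highest in Tph1, 1 and 3 were called for SA and SU labelled 5-Htt+/+ and 0 for SU labelled 5-Htt+/-. Both settings were chosen after seeing the data. The replicate block called 7 genes for SA labelled 5-Htt+/+, and 3 and 2 for SA and SU labelled 5-Htt+/-. The 7 included 1 of the 8 members, Prl (log2 fold change 5.21 ± 0.96, edgeR adjusted p = 0.0152), in place of 0. Replicate numbers paired nothing: 6 of 115 same-numbered pairs had r over 0.1, and 8 of 48 libraries were most like one of their own number. In every other alternative 0 of the 8 genes were called, though DESeq2 gave some of their values no adjusted p, as described above. Of the log2 fold changes of the members, 338 moved by less than their error and 62 by more. These counts hold the fit without 5-Htt+/+ SA replicate 8 2 times, because that library was highest in both the pituitary and the pineal members. Each time it adds 29 values that moved by less and 11 that moved by more. Genes with a median of 1 or 2 reads are limited by depth, since 3 reads were 0.0799 to 0.186 CPM.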

Other observations

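Interferon-induced genes, chosen after their values were seen, were also highest in 5-Htt+/+ SA replicate 8, with 135 reads of Ifit1 against a median of 34, 95 reads of Usp18 against 25, 188 reads of Oasl2 against 65 and 80 reads of Irf7 against 28.5.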
